A study of Mus musculus with 8 samples.

Results

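The genes described are 9 structural genes of the basal layer of the epidermis: the basal keratins Krt5, Krt14 and Krt15, the integrin genes Itga6, Itgb4, Itga3 and Itgb1, and the laminin chain genes Lama3 and Lamb3. They were set by gene symbol as a fixed list, without a rule on their measured values but with earlier results of these data known. They make up 9 of the 22740 protein-coding genes listed. All 9 passed the filter on low counts, which left 15163 genes for testing. RNA sequencing was performed on dorsal skin of 8 female BALB/c mice aged 6 to 8 weeks, 1 library being made from each mouse, and the 4 groups held 2 mice each. Butyrate-treated mice drank water with 400 mM sodium butyrate, a short-chain fatty acid, from 2 weeks before allergen until the end, and CTL mice drank water without it. A low-fibre diet was fed in these experiments, per the study's methods. Lesional skin (labelled atopic dermatitis) had been exposed 4 times within 2 weeks to 15 µg of house dust mite extract (HDM), and baseline skin had not. The 4 groups were therefore baseline CTL (replicates 1 and 2), baseline butyrate (replicates 1 and 3), lesional CTL (replicates 4 and 5) and lesional butyrate (replicates 3 and 4). The first label number is 5 for all baseline and 6 for all lesional mice, and the effect of HDM and that of the set of mice cannot be told apart. The second label number is 1 for all CTL and 3 for all butyrate-treated mice, and the same limit holds for butyrate. What these numbers stand for is not given in the labels.

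Basal keratinocytes are the dividing, undifferentiated cells that rest on the basement membrane, and they are held there by hemidesmosomes. In a hemidesmosome, filaments of keratin 5 paired with keratin 14 connect through plectin and the epithelial form of dystonin to the integrin made of the α6 and β4 chains and to collagen XVII, and these bind laminin-332 outside the cell. Laminin-332 holds the products of Lama3 and Lamb3, and the integrin made of α3 and β1 binds it at focal adhesions. Keratin 15 is a type I keratin of resting basal cells and of the hair follicle bulge. When a keratinocyte leaves the basal layer, it stops making keratins 5 and 14 and starts making keratins 1 and 10. Mutations in Krt5, Krt14, Itga6, Itgb4, Lama3 and Lamb3 cause forms of epidermolysis bullosa, in which the skin blisters. The α6 chain, CD49f on the cell surface, is a flow cytometry marker of undifferentiated keratinocytes, which the study also used.

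Krt5 and Krt14 each share stretches of sequence with keratins that are induced in injured epidermis, and these stretches bear on how their reads can be counted. Of the 50-base windows in Krt14 transcripts, 13.9% also occurred in another gene's transcripts, 188 of 1707 in Krt16 and 55 in Krt17. For Krt5 the share was 8.52%, with 150 of 2148 windows in Krt6a. It was 5.31% for Itga6, shared with predicted and zinc finger genes, 0.640% for Krt15, and 0 for the other 5 genes. The longest run shared by Krt14 and Krt16 was 134 bases. It is shown with 20 bases on either side, in capitals where the 2 genes differ, at chr11:100206997-100207170 (minus strand, exon 1 of Krt14) and chr11:100248456-100248629 (minus strand, exon 1 of Krt16), within the coding sequence of both in GENCODE vM21 on GRCm38.
Krt14: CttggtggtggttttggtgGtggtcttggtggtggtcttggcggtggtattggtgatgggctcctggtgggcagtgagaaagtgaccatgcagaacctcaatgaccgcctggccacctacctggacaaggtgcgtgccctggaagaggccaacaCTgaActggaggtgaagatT
Krt16: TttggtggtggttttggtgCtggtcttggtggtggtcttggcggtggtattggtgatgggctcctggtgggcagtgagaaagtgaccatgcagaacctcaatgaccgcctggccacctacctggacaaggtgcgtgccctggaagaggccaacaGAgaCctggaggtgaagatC
These stretches had 168 of 174 bases in common, and the 6 differences all lay outside the run of 134.
A read that lies within such a run cannot be assigned to 1 gene, and how the counting treated these reads is not given in the sources used here. Krt16 was at 41.5 and 45.8 CPM (read counts scaled to a common library size) in baseline CTL skin and at 1702 and 1147 CPM in lesional CTL skin, Krt17 was at 826 and 717 against 2874 and 1899 CPM, and Krt6a was at 283 and 236 against 2161 and 1414 CPM. The mean Krt14 level was 2788 ± 28.8 CPM in baseline and 5347 ± 806 CPM in lesional CTL skin (SD, n = 2), and the part of shared reads in this difference was not tested.

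Part of the RefSeq promoter table for GRCm38.p6 was used, with windows of 300 bases (250 before the start of a transcript and 50 after it). This part held windows for 5 of the 9 genes, Krt5, Krt14, Lamb3, Itgb1 and Itga3, 7 windows in all. Lama3 lies outside the part used, so whether the full table holds a window for it was not tested. The window listed for Krt14 lies inside the gene, downstream of its GENCODE start, and is not shown. The windows of Krt5 and Itgb1 are shown because they stand for the 2 kinds of gene compared here, a keratin of stratified epithelium and a widely used integrin chain. Both strands were searched for the letters TGANTCA of the AP-1 site, for the TATA box in the form TATAAA, for the GC box in the form GGGCGG, and for the half-site of p63, the transcription factor of the basal layer, and matches are in capitals.
Krt5, chr15:101712856-101713155, minus strand: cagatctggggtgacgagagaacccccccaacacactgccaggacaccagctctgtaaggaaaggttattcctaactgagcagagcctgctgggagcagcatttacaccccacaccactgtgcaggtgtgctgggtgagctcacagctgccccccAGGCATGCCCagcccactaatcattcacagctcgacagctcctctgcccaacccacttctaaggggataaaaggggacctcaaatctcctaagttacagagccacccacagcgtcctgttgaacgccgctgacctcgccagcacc
Itgb1, chr8:128685404-128685703, plus strand: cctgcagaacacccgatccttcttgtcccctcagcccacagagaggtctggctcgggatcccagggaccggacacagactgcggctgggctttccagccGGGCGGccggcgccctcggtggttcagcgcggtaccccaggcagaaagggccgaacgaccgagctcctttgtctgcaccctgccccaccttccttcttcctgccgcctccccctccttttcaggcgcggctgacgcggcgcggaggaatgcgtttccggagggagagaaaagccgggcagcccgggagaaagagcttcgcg
Krt5 held 1 match to the p63 half-site and Itgb1 held 1 GC box. Of the 32851 promoter windows in the part of the table used, 32.5% held a p63 half-site, 35.7% a GC box, 13.6% the TATA box and 7.81% an AP-1 site. Such matches are therefore common, and they are a description of these letters alone.

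Libraries held between 18004136 and 21085544 counts, and levels are given as CPM of the library total scaled by edgeR's TMM factors (0.944 to 1.04). One library stood apart. Baseline butyrate replicate 3 had a summed level of 12230 CPM for hair follicle keratins, on a list of 12 of which 11 were listed. The other 7 mice were at 1.35 to 5.61 CPM, with Krt33b and Krt81 at 0 in 5 mice each. The list held hair shaft keratins and the inner root sheath keratins Krt25, Krt27 and Krt71, at 2971, 1940 and 3811 CPM in replicate 3. Its melanocyte markers summed to 720 CPM against 34.3 to 57.0 CPM, its skeletal muscle markers to 11847 CPM against 16382 to 56657 CPM, and its suprabasal keratins (Krt1, Krt10, Krt2, Krt77) to 2254 CPM against 14056 CPM in baseline butyrate replicate 1. The 2 baseline butyrate mice lay over 2-fold apart in 26.4% of 14196 genes, against 1.39 to 4.75% in the other pairs. Because all 8 mice shared 1 estimate of the spread in the fitted model, the results that rest on that library are given with and without it. Without it the baseline butyrate group is a single mouse, which is assumed to vary like the others.

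All 9 genes were detected in every mouse, so that the epidermal markers of skin were present in each library, and their levels spanned a wide range. Divided by exon length, Krt5 was highest in baseline CTL skin at 2212 ± 53.1 CPM per kilobase (SD, n = 2), followed by Krt14 at 1586 ± 16.5 and Krt15 at 1031 ± 30.0. Itgb1 followed at 82.6 ± 0.347, Itgb4 at 39.9 ± 3.02, Lamb3 at 27.5 ± 1.71, Itga6 at 25.9 ± 3.76, Itga3 at 15.8 ± 0.941 and Lama3 at 9.52 ± 1.67 CPM per kilobase. Of these neighbours, Lamb3 and Itga6 overlapped between mice, and the others did not. In lesional CTL skin the order of the keratins on the per-kilobase scale was different: Krt14 was at 3042 ± 458, Krt5 at 2302 ± 217 and Krt15 at 297 ± 72.8. Together the 9 genes took 1.02% and 0.999% of all counts in baseline CTL, 0.893% and 0.780% in baseline butyrate, 1.37% and 1.18% in lesional CTL, and 1.32% and 1.33% in lesional butyrate skin. In bulk skin, fewer cells of a type and less RNA per cell cannot be told apart.

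Among the keratins, Krt15 was lower and Krt14 higher in HDM-exposed skin of CTL mice, while the levels of Krt5, the partner of Krt14, overlapped. Krt15 (chr11:100131758-100135928, minus strand) was at 1860 and 1785 CPM in baseline CTL and at 433 and 615 CPM in lesional CTL skin. With butyrate it was at 1086 and 1052 CPM in lesional skin and at 1681 and 681 CPM in baseline skin, where 681 is replicate 3. Lesional butyrate mice thus lay between the lesional and baseline CTL mice, without overlap with either. The log2 fold change of Krt15 for HDM in CTL mice was -1.80 (SE 0.44, FDR 0.109 by edgeR's quasi-likelihood test with Benjamini-Hochberg adjustment over 15163 genes), and that for butyrate in lesional skin was 1.03 (SE 0.43, FDR 1.00). The same fold changes had SEs of 0.20 and FDRs of 0.00367 and 0.0947 without baseline butyrate replicate 3. Over the alternative settings the FDR ranged from 5.50e-18 to 0.660 for HDM and from 2.10e-05 to 1.00 for butyrate. With only the 4 lesional mice in the fit, Krt15 had an FDR of 0.206.

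Krt14 (chr11:100203162-100207548, minus strand) was at 2767 and 2808 CPM in baseline CTL, 2512 and 2375 CPM in baseline butyrate, 5917 and 4778 CPM in lesional CTL, and 4667 and 4919 CPM in lesional butyrate skin. All 4 lesional mice were above all 4 baseline mice, a separation that was not counted over all genes, and the 2 lesional groups overlapped. Its log2 fold change with HDM was 0.94 (SE 0.25, FDR 0.131) in CTL and 0.96 (SE 0.25, FDR 0.250) in butyrate-treated mice. These were 0.94 (SE 0.20, FDR 0.0192) and 0.93 (SE 0.25, FDR 0.0820) without baseline butyrate replicate 3, both under 2-fold. Krt5 (chr15:101707070-101712898, minus strand) was at 4943 and 4778 CPM in baseline CTL, 4183 and 3727 CPM in baseline butyrate, 5395 and 4722 CPM in lesional CTL, and 5904 and 5944 CPM in lesional butyrate skin. The CTL groups overlapped, with a log2 fold change for HDM of 0.06 (SE 0.26, FDR 0.914). In butyrate-treated mice both lesional mice were above both baseline mice, with a log2 fold change of 0.57 (SE 0.26, FDR 0.410).

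**Figure D1:**
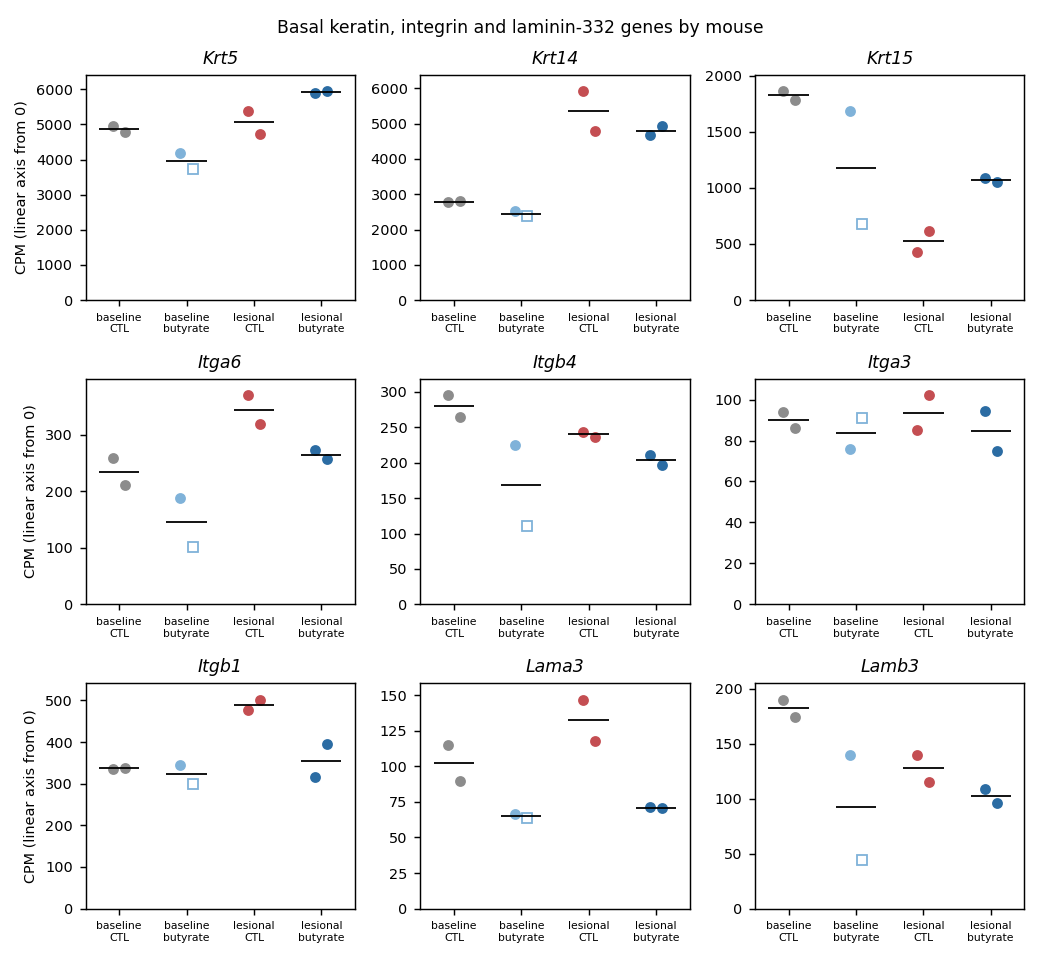
Level of each of the 9 basal genes in CPM (vertical axis, linear from 0) in the 8 mice of the 4 groups (horizontal axis). Each point is 1 mouse, the open square is baseline butyrate replicate 3, and the bar is the mean of the 2 mice. Krt14 is higher in all 4 lesional than in all 4 baseline mice, Krt15 is lowest in the 2 lesional CTL mice, and Lama3 is lower in the 4 butyrate-treated mice (63.8 to 71.5 CPM) than in the 4 CTL mice (89.6 to 147 CPM).

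For HDM in CTL mice the log2 fold changes of the hemidesmosome integrin chains had opposite signs, and with butyrate both chains lay below the CTL mice in both skin states. Itga6 (chr2:71745616-71858416, plus strand) was at 258 and 210 CPM in baseline CTL, 188 and 102 CPM in baseline butyrate, 369 and 319 CPM in lesional CTL, and 273 and 256 CPM in lesional butyrate skin. Lesional CTL mice were the highest, and within each skin state the butyrate-treated mice were below the CTL mice. The log2 fold change of Itga6 for HDM in CTL mice was 0.56 (SE 0.29, FDR 0.336), and without baseline butyrate replicate 3 it was 0.56 (SE 0.14, FDR 0.0323). For butyrate in lesional skin it was -0.38 (SE 0.29, FDR 1.00), or -0.38 (SE 0.14, FDR 0.286) without that library. Itgb4 (chr11:115974709-116008412, plus strand), the chain that binds plectin, was at 295 and 265 CPM in baseline CTL, 225 and 111 CPM in baseline butyrate, 243 and 237 CPM in lesional CTL, and 211 and 197 CPM in lesional butyrate skin. Its log2 fold change for HDM in CTL mice was -0.22 (SE 0.31, FDR 0.701), and FDR was 0.156 without that library. For butyrate, the log2 fold change of Itgb4 was -0.23 (SE 0.31, FDR 1.00) in lesional and -0.73 (SE 0.31, FDR 0.714) in baseline skin, and in baseline skin it was -0.32 (SE 0.13, FDR 1.00) without that library.

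Itgb1, which pairs with α3 and several other α chains, was higher in lesional CTL skin than in any other group. Itgb1 (chr8:128685654-128733200, plus strand) was at 336 and 338 CPM in baseline CTL, 345 and 300 CPM in baseline butyrate, 477 and 502 CPM in lesional CTL, and 315 and 396 CPM in lesional butyrate skin. The other 3 groups overlapped with each other. The log2 fold change was 0.54 for HDM in CTL mice (SE 0.17, FDR 0.176) and -0.46 for butyrate in lesional skin (SE 0.17, FDR 0.961). The FDRs were 0.0347 and 0.208 without baseline butyrate replicate 3. Itga3 (chr11:95044474-95076801, minus strand) was at 93.9 and 86.3 CPM in baseline CTL, 75.9 and 91.1 CPM in baseline butyrate, 85.2 and 102 CPM in lesional CTL, and 94.3 and 75.1 CPM in lesional butyrate skin. All 4 groups overlapped, and the log2 fold changes of Itga3 lay between -0.15 and 0.06 (SE 0.18 each) in the 4 comparisons. β1 integrin is also made by fibroblasts, endothelium and immune cells. The 10 fibroblast markers summed to 3721 to 9093 CPM and the 8 endothelial markers to 146 to 401 CPM over the 8 mice. Over all 8 mice both ranges overlapped between lesional and baseline skin. In CTL mice alone the fibroblast sums overlapped (6610 and 7876 CPM in baseline, 6837 and 7618 CPM in lesional skin). The endothelial sums did not, at 287 and 318 CPM in baseline CTL and 401 and 378 CPM in lesional CTL skin. For HDM in CTL mice 8 of 8 endothelial log2 fold changes were positive, with a median of 0.38. The part of these cells in Itgb1 was not tested.

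The levels of both laminin genes lay below those of CTL mice in butyrate-treated mice in both skin states, and for Lama3 across the states as well. Lama3 was at 115 and 89.6 CPM in baseline CTL, 66.4 and 63.8 CPM in baseline butyrate, 147 and 118 CPM in lesional CTL, and 71.5 and 70.4 CPM in lesional butyrate skin. All 4 butyrate-treated mice, baseline butyrate replicate 3 among them, were below all 4 CTL mice, a separation that was not counted over all genes. The log2 fold change of Lama3 for butyrate was -0.90 in lesional skin (SE 0.17, FDR 0.737) and -0.64 in baseline skin (SE 0.17, FDR 0.714), and the difference between these effects was -0.26 (SE 0.24, FDR 0.840). With that library left out, the fold change in lesional skin was -0.90 (SE 0.16, FDR 0.0843), a fall of under 2-fold, and that in baseline skin was -0.62 (SE 0.20, FDR 1.00). The FDR of the lesional fold change ranged from 0.000376 to 1.00 over the alternative settings, and with only the 4 lesional mice in the fit it was 0.151. For HDM in CTL mice the log2 fold change of Lama3 was 0.37 (SE 0.17, FDR 0.292).

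Lamb3 was at 190 and 174 CPM in baseline CTL, 140 and 44.6 CPM in baseline butyrate, 140 and 115 CPM in lesional CTL, and 109 and 96.1 CPM in lesional butyrate skin. Unlike Lama3, it was lower in lesional than in baseline CTL mice, with a log2 fold change of -0.51 (SE 0.47, FDR 0.557), or -0.51 (SE 0.13, FDR 0.0341) without baseline butyrate replicate 3. Its log2 fold change for butyrate was -0.32 (SE 0.47, FDR 1.00) in lesional skin and -0.98 (SE 0.47, FDR 0.714) in baseline skin, the latter being -0.38 (SE 0.16, FDR 1.00) without that library. The span of Lamb3 on GRCm38 (chr1:193207699-193343878, plus strand) overlaps Hsd11b1 and G0s2 on the opposite strand, so that its counts depend on how strand was treated.

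In the fit of all 8 mice 0 of the 9 genes were called, at FDR below 0.1 and fold-change above 2, in any of the 5 comparisons, and 0 were called at FDR below 0.1 at any fold. At an unadjusted p below 0.05 there were 3 for HDM in CTL mice (Krt15, Krt14, Itgb1), 2 for butyrate in lesional skin (Lama3, Itgb1), 1 for butyrate in baseline skin (Lama3) 2 for HDM in butyrate-treated mice (Krt14, Itga6) and 1 for the difference between the butyrate effects (Krt15). Over all genes, 2983 of 15163 had an unadjusted p below 0.05 for HDM in CTL mice and 1993 of 15163 for HDM in butyrate-treated mice. In the other 3 comparisons 529 to 734 genes had one. Of all 15163 genes, 3.58% were called for HDM in CTL mice (4.83% at any fold), 0.350% for HDM in butyrate-treated mice (0.356% at any fold) and 0% in the other 3 comparisons. limma-voom and DESeq2, on the same 8 mice, each called Krt15 for HDM in CTL mice (log2 fold change -1.83, FDR 0.0905, and -1.78, FDR 0.000906) and no other member at this rule. Without baseline butyrate replicate 3, edgeR called Krt15 for HDM in CTL mice, where 12.5% of 15349 genes were called, and for butyrate in lesional skin, where 1.22% were called, and 0 members for HDM in butyrate-treated mice, where 5.94% were. At FDR below 0.1 at any fold, the members that passed for HDM in CTL mice were Krt14, Itga6 and Itgb1 (higher) and Krt15 and Lamb3 (lower), 5 of 9 against 38.7% of all genes, a share not far from the background. For butyrate in lesional skin, Krt15 (higher) and Lama3 (lower) passed, 2 of 9 against 2.03% of all genes, and for HDM in butyrate-treated mice Krt14 passed, 1 of 9 against 14.2%. Over the alternative settings the FDR for HDM in CTL mice ranged from 1.37e-08 to 0.725 for Krt14, from 0.00461 to 0.808 for Itga6, from 0.00294 to 0.699 for Itgb1 and from 0.0174 to 0.848 for Lamb3, and that of Krt14 for HDM in butyrate-treated mice ranged from 9.73e-07 to 0.999. None passed for butyrate in baseline skin or for the difference between the butyrate effects, where 0% of all genes did.

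The direction of the members was uneven. For HDM in CTL mice 4 of 9 had lesional mice above and 3 had lesional mice below both baseline mice, where 36.7% and 38.5% of all genes tested did. The median log2 fold change of the 9 was 0.06, against -0.02 over all genes. For butyrate in lesional skin 2 were higher and 5 lower without overlap, where 22.4% and 22.5% of all genes were, with a median of -0.23 against -0.01. For butyrate in baseline skin all 9 log2 fold changes were below 0, 7 were lower and 0 higher without overlap, where 16.4% and 13.4% of all genes were. Their median was -0.62 against 0.00 over all genes, and -0.25 without baseline butyrate replicate 3. In that mouse Lamb3 was 3.13-fold, Krt15 2.47-fold, Itgb4 2.02-fold and Itga6 1.85-fold below replicate 1. Without it the 9 log2 fold changes in baseline skin lay between -0.62 (Lama3) and 0.03 (Itgb1), with none called. For HDM in butyrate-treated mice 4 were higher and 0 lower without overlap, where 16.4% and 16.0% of all genes were, with a median of 0.15 against -0.04 (0.10 without baseline butyrate replicate 3).

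**Figure D2:**
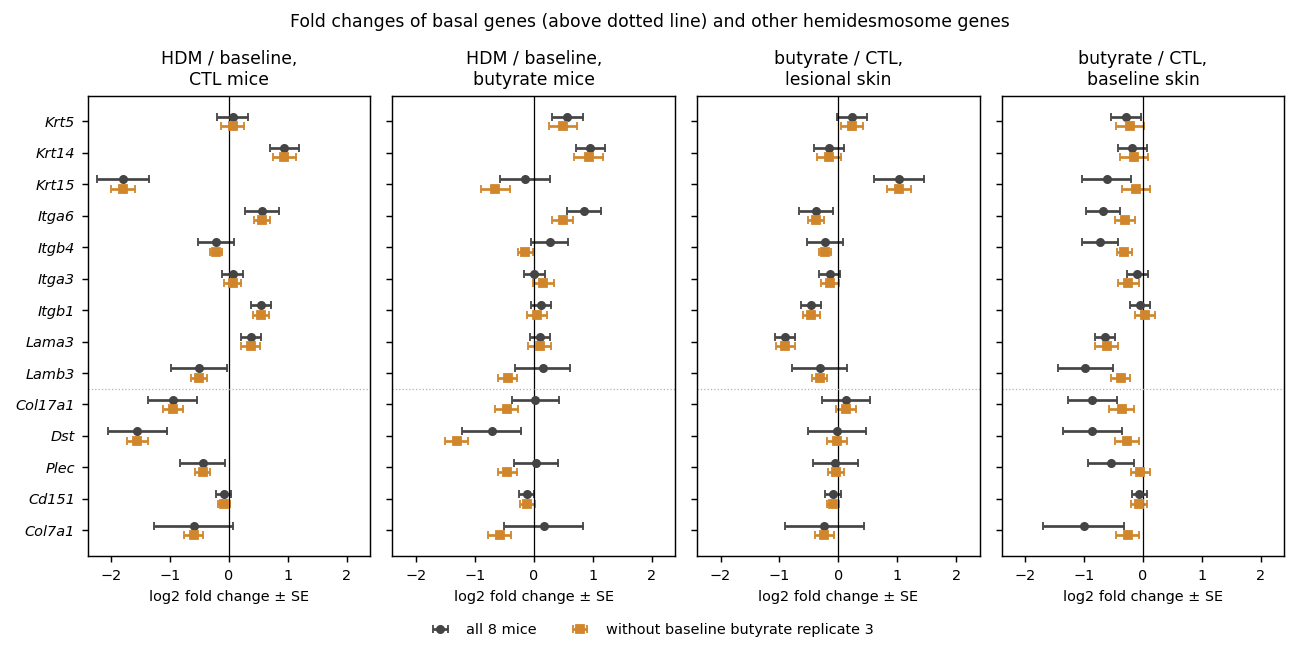
Log2 fold change (horizontal axis, with its standard error as bars) of the 9 basal genes and of 5 other hemidesmosome and anchoring genes (vertical axis) in 4 comparisons, from the fit of all 8 mice (dark circles) and without baseline butyrate replicate 3 (orange squares). For HDM in CTL mice and for butyrate in lesional skin the estimates are the same in both fits and the bars are shorter without that library, as for Krt15 with SEs of 0.44 and 0.20, while for HDM in butyrate mice and for butyrate in baseline skin the estimates themselves move.

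Most other hemidesmosome and anchoring genes had lower levels in lesional CTL skin than in baseline CTL skin, unlike Krt14. All 5 such genes had negative log2 fold changes for HDM in CTL mice (median -0.60 against -0.02 over all genes), and 0 were called in the fit of all 8 mice. With baseline butyrate replicate 3 left out, Dst fell over 2-fold, and Col17a1, Plec and Col7a1 passed at FDR below 0.1 at a smaller fold, all lower. Dst, which encodes the dystonin plakin, was at 1425 and 1269 CPM in baseline CTL, 1120 and 355 CPM in baseline butyrate, 409 and 506 CPM in lesional CTL, and 413 and 492 CPM in lesional butyrate skin. Its log2 fold change for HDM in CTL mice was -1.56 (SE 0.50, FDR 0.179 with all 8 mice, and SE 0.18, FDR 0.00367 without that library). Long forms of dystonin are also made in muscle and nerve. The 10 skeletal muscle markers summed to 46924 and 56657 CPM in baseline CTL against 19772 and 28019 CPM in lesional CTL skin. Of their log2 fold changes 10 of 10 were negative, and the median was -1.14 both with and without baseline butyrate replicate 3. In the fit of all 8 mice 0 of these markers were called. The part of muscle in the difference in Dst was not tested. In butyrate-treated mice Dst had a log2 fold change for HDM of -1.31 (SE 0.20, FDR 0.0364) without that library.
Col17a1, the transmembrane collagen that tethers basal cells, was at 1695 and 1400 CPM in baseline CTL, 1203 and 495 CPM in baseline butyrate, 742 and 854 CPM in lesional CTL, and 915 and 828 CPM in lesional butyrate skin. Its log2 fold change for HDM in CTL mice was -0.96 (SE 0.41, FDR 0.267), or FDR 0.0121 without baseline butyrate replicate 3. For Plec, the plectin gene, it was -0.45 (SE 0.38, FDR 0.528, or FDR 0.0516 without that library), and for Col7a1, the anchoring fibril collagen, it was -0.60 (SE 0.67, FDR 0.631, or FDR 0.0401). Cd151, the tetraspanin that associates with the laminin-binding integrins, was between 140 and 176 CPM in all 8 mice, with a log2 fold change of -0.09 (SE 0.13, FDR 0.713). None of these 5 genes was called for butyrate in lesional skin in either fit, with log2 fold changes between -0.24 and 0.13.

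**Figure D3:**
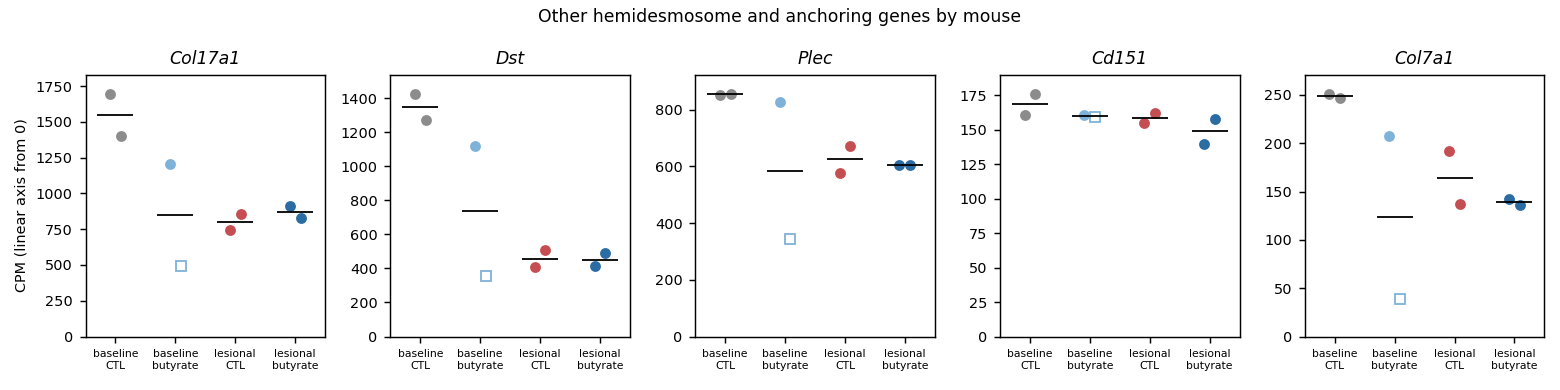
Level in CPM (vertical axis, linear from 0) of Col17a1, Dst, Plec, Cd151 and Col7a1 in the 8 mice of the 4 groups (horizontal axis). Each point is 1 mouse, the open square is baseline butyrate replicate 3, and the bar is the mean of the 2 mice. The 4 lesional mice are below the baseline CTL mice for Dst, Col17a1, Plec and Col7a1.

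Of 15 other basement membrane genes, 0 were called higher and 2 lower for HDM in CTL mice (0 and 4 without baseline butyrate replicate 3), with a median log2 fold change of -0.07 against -0.02 over all genes. Frem2, of the Fraser complex that joins epidermis to dermis, fell from 27.2 and 26.5 CPM to 5.76 and 6.32 CPM (log2 fold change -2.15, SE 0.23, FDR 0.0261). Lamc3, the laminin γ3 chain, fell from 18.6 and 16.0 CPM to 7.42 and 7.75 CPM (log2 fold change -1.19, SE 0.26, FDR 0.0881). In lesional butyrate skin Lamc3 was at 13.1 and 12.4 CPM, with a log2 fold change of 0.75 against lesional CTL (SE 0.26, FDR 0.942, or FDR 0.0929 without baseline butyrate replicate 3). Of the 6 other keratinocyte integrins and 10 integrin adaptors, 0 were called for HDM in CTL mice. At any fold, and without baseline butyrate replicate 3, 1 integrin was higher and 1 lower, and 1 adaptor was higher and 2 lower. In that fit Itga2, the collagen-binding α2 chain, was called lower with butyrate in lesional skin (log2 fold change -1.06, SE 0.20, FDR 0.0936), from 15.7 and 12.2 CPM to 6.39 and 6.93 CPM. Itga2 was named after its values were seen.
Of 14 regulators and markers of the basal layer 0 were called in either fit for HDM in CTL mice, with a median of -0.32, and without baseline butyrate replicate 3 at FDR below 0.1 at any fold 2 were higher and 6 lower. Trp63, which encodes p63, was between 283 and 441 CPM in all 8 mice, with a log2 fold change of 0.16 for HDM in CTL mice (SE 0.26, FDR 0.757) and of 0.14 for butyrate in lesional skin (SE 0.26, FDR 1.00). Of 10 genes of the bulge and outer root sheath, the other site of Krt15, 1 was called lower for HDM in CTL mice (1 higher and 4 lower without baseline butyrate replicate 3), and their median was -0.69. That gene was Lhx2, a transcription factor of follicle stem cells, which fell from 53.6 and 47.3 CPM to 15.5 and 18.9 CPM (log2 fold change -1.55, SE 0.34, FDR 0.0884). In lesional butyrate skin Lhx2 was at 25.0 and 25.4 CPM (log2 fold change against lesional CTL 0.55, SE 0.34, FDR 1.00). Whether the follicle or the epidermis between follicles carried the difference in Krt15 was not tested.

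The ratio of basal to suprabasal keratins was highest in lesional CTL mice and 1 of the 2 baseline butyrate mice, and lesional butyrate mice lay between lesional and baseline CTL mice. The ratio of Krt5 and Krt14 to Krt1 and Krt10 was 0.748 and 0.762 in baseline CTL, 4.89 and 2.97 in lesional CTL, and 1.19 and 1.54 in lesional butyrate skin. In baseline butyrate skin it was 0.693 in replicate 1 and 4.33 in replicate 3, where the hair follicle keratins were high. The suprabasal keratins set most of this range. Krt10 was at 6948 and 6664 CPM in baseline CTL, 834 and 1697 CPM in lesional CTL, and 4848 and 3983 CPM in lesional butyrate skin. Krt1 was at 3355 and 3291, 1478 and 1506, and 4006 and 3071 CPM in these groups. Over 4 lesional against 4 baseline mice, the mean log2 ratio differed by 0.99 (exact two-sided permutation test, p = 0.200), with a difference of 2.33 in CTL and -0.35 in butyrate-treated mice. Without baseline butyrate replicate 3 the difference was 1.63 (exact p = 0.0571, the smallest that 3 against 4 mice allow). For butyrate against CTL it was -1.49 in lesional skin, where 2 against 2 mice cannot give an exact p below 0.333. In the model without that library, Krt1 and Krt10 were both called lower for HDM in CTL mice (log2 fold changes -1.15, FDR 0.0107, and -2.43, FDR 0.00780) and higher for butyrate in lesional skin (1.25, FDR 0.0702, and 1.80, FDR 0.0986), and with all 8 mice neither was called in either comparison.

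Ratios between pairs of members, chosen after the levels were seen and given without a test, do not depend on the scaling of a library. Krt14 over Krt5 was 0.560 and 0.588 in baseline CTL, 0.601 and 0.637 in baseline butyrate, 1.10 and 1.01 in lesional CTL, and 0.790 and 0.828 in lesional butyrate skin, so that the 4 groups did not overlap. Krt15 over Krt14, both type I keratins, was 0.672 and 0.636 in baseline CTL, 0.669 and 0.287 in baseline butyrate, 0.0732 and 0.129 in lesional CTL, and 0.233 and 0.214 in lesional butyrate skin. All 4 lesional mice were below the baseline mice, and baseline butyrate replicate 3 was the lowest of these. Itga6 over Itgb4 was 0.793 to 0.918 in the 4 baseline mice and 1.30 to 1.52 in the 4 lesional mice. Here replicate 3 (0.918) lay close to the other baseline mice, although both of its integrin levels were low. Lama3 over Lamb3 was 0.605 and 0.516 in baseline CTL, 1.04 and 1.02 in lesional CTL, and 0.656 and 0.732 in lesional butyrate skin, and 0.476 and 1.43 in the 2 baseline butyrate mice. Itga3 over Itgb1 overlapped between lesional and baseline mice.

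**Figure D4:**
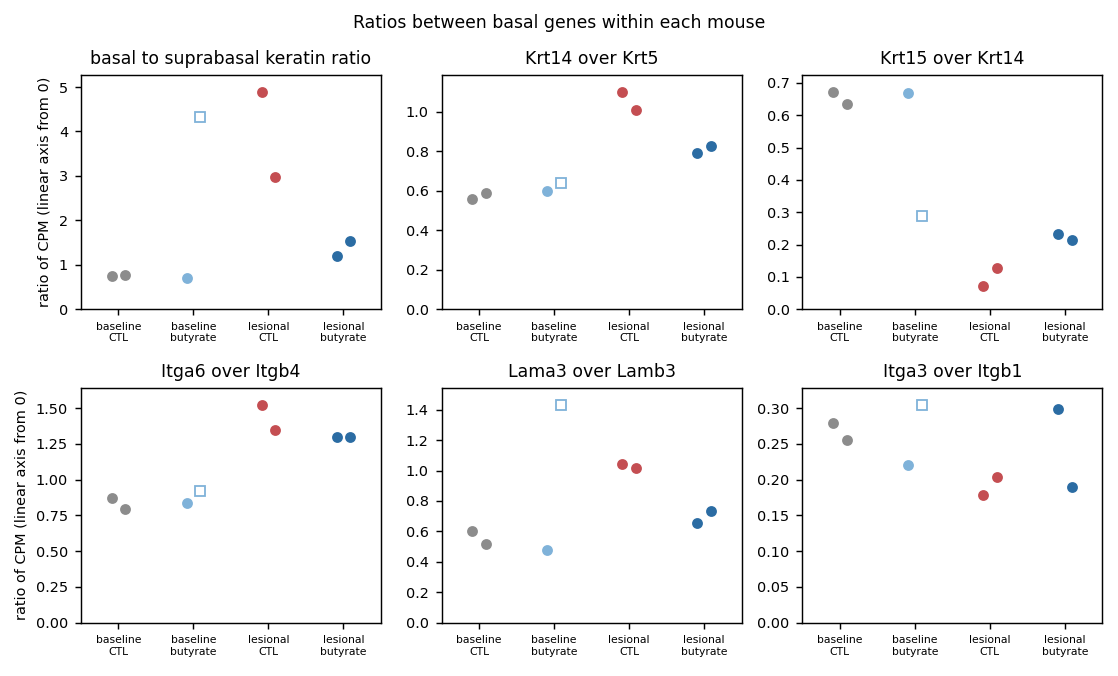
Ratio of CPM within each mouse (vertical axis, linear from 0) for Krt5 and Krt14 over Krt1 and Krt10 and for 5 pairs of basal genes, in the 4 groups (horizontal axis). Each point is 1 mouse and the open square is baseline butyrate replicate 3. Itga6 over Itgb4 separates the 4 lesional (1.30 to 1.52) from the 4 baseline mice (0.793 to 0.918), and the basal to suprabasal ratio of replicate 3 (4.33) lies within the lesional CTL range.

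As a measure of likeness, the root mean square difference between the centred log2 CPM of 2 genes over the 8 mice was smallest for Itgb4 and Lamb3 (0.23). It was 0.35 for the partners Krt5 and Krt14, 0.35 for Itga6 and Itgb4, 0.28 for Itga3 and Itgb1, and 0.52 for Lama3 and Lamb3. The most different pair was Krt14 and Krt15 (1.11). The 5 genes closest to the mean of the 9 members, among 10781 with at least 10 CPM on average, were Klhdc8b (0.055), Elf4 (0.071), Irf2 (0.079), Foxp4 (0.081) and 2310061I04Rik (0.081). The mean itself varied little outside baseline butyrate replicate 3, between -0.08 and 0.24 in 7 mice against -0.65 in that mouse, so that this likeness rests mainly on 1 library.

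Markers of other cell types and of injured keratinocytes also differed between the groups. The 8 neutrophil markers summed to 18.7 to 28.1 CPM in baseline skin, 2816 and 1825 CPM in lesional CTL and 798 and 378 CPM in lesional butyrate skin, and 8 of 8 were called higher for HDM in CTL mice. The 3 injury keratins Krt6a, Krt6b and Krt16 summed to 301 to 649 CPM in baseline skin, 5671 and 3685 CPM in lesional CTL and 2387 and 1793 CPM in lesional butyrate skin, and 3 of 3 were called higher. The 8 proliferation genes summed to 293 and 297 CPM in baseline CTL, 264 and 755 CPM in baseline butyrate, and 384 to 487 CPM in lesional skin. For HDM in CTL mice 8 of 8 had a positive log2 fold change, with a median of 0.64 with and without baseline butyrate replicate 3. For HDM in butyrate-treated mice the median was -0.15 with that library and 0.73 without it. In the fit of all 8 mice 0 of the 8 were called. Sebocyte markers ranged from 557 to 1932 CPM and adipocyte markers from 1602 to 2708 CPM over the 8 mice. The part of these differences in the levels of the basal genes was not tested.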

How the data were processed

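RNA sequencing libraries (Illumina TruSeq) of 8 skin samples were aligned by the authors with STAR 2.5.2 and counted per gene with featureCounts on GRCm38. The authors deposited raw read counts, taken on the reverse strand, for protein-coding genes. Groups came from the sample labels, and 1 library held the RNA of 1 mouse. Counts were filtered with filterByExpr (minimum count 10), scaled by TMM and tested with edgeR 4.0.16 (R 4.3.3) by the robust quasi-likelihood test, with 1 mean per group and a spread shared by all 8 mice (4 residual degrees of freedom, common BCV 0.276), at the study's thresholds (FDR below 0.1, fold-change above 2). The p-values of these fits measure the spread between mice within groups of 2. The exact permutation tests compared lesional with baseline mice and pooled CTL with butyrate-treated mice. In them the difference between treatments therefore counted as spread. The results were recomputed with limma 3.58.1 (voom, the study's method), with DESeq2 1.42.0, with its size factors in edgeR, with library totals, without the filter, with only the groups compared, and without each mouse in turn. The fits of limma-voom and DESeq2 without baseline butyrate replicate 3, and the ratios between members, were added after the data were seen. The code was tested on simulated data. Levels per kilobase used GENCODE vM21 exon lengths. Exact permutation tests used SciPy 1.17.1. The members and lists were chosen with earlier results of these data known. Beyond the members, the text names Col17a1, Dst, Plec, Cd151, Col7a1, Trp63, Krt1 and Krt10 always, and other listed genes where called with all 8 mice; Krt16, Krt17, Krt6a and Itga2 were named after their values were seen. One gene of the list of other hemidesmosome genes is not reported here.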

Additional observations from a re-analysis of the deposited data

Results flagged for a closer look

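The effect of butyrate on Krt15 differed between lesional and baseline skin before adjustment for the number of genes. Its log2 fold change was 1.03 in lesional and -0.62 in baseline skin, a difference of 1.65 (SE 0.60, FDR 0.840 by edgeR, with an unadjusted p below 0.05). Without baseline butyrate replicate 3, whose Krt15 level was 681 CPM against 1681 CPM in replicate 1, the difference was 1.14 (SE 0.32, FDR 0.476). Butyrate-treated mice were above CTL mice in 2 of 2 lesional mice and below them in 2 of 2 baseline mice. By edgeR with all 8 mice, 703 of 15163 genes had an unadjusted p below 0.05 for this difference. Krt15 did not pass the adjustment over all genes.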

How the results depend on the processing

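No paired analysis was made, because each library came from a different mouse and the labels give no pairing of mice. Of the log2 fold changes of the 9 genes under all alternatives, 654 kept their direction and side of the threshold, 22 passed it anew and 35 turned their direction; the cause was not tested. Members called for HDM in CTL mice were 1 with limma-voom, DESeq2 and only the groups compared (Krt15 in each) and 1 with library totals (Krt14, log2 fold change 1.07, FDR 0.0997). Without baseline butyrate replicate 3, limma-voom and DESeq2 each called 1 for HDM in CTL mice and 1 for butyrate in lesional skin, and DESeq2 called 1 for the difference (Krt15 each time). Leaving out 1 mouse gave 0 to 1 members for HDM in CTL mice, 0 to 1 for butyrate in lesional skin, 0 to 4 for butyrate in baseline skin, 0 to 2 for HDM in butyrate-treated mice and 0 to 3 for the difference. Every call arose without a baseline butyrate mouse. Krt15 was called for HDM in CTL mice and for butyrate in lesional skin when either baseline butyrate mouse was left out, replicate 1 or replicate 3. Without baseline butyrate replicate 1 the further calls were Itga6, Itgb4, Krt15 and Lamb3 in baseline skin, Itga6 and Lamb3 for HDM in butyrate-treated mice, and Itgb4, Krt15 and Lamb3 for the difference.

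With library totals, which moved the median of all genes to 0.11 for HDM in CTL mice and to -0.12 for the difference, Itgb1 was at 0.02 in baseline skin and the difference for Krt14 was -0.06. Without baseline butyrate replicate 3 (edgeR, limma-voom, DESeq2), Itgb1 in baseline skin was at 0.03 in each, Itgb4 for HDM in butyrate-treated mice at -0.14, -0.14 and -0.13, Lamb3 at -0.44, -0.45 and -0.43, and the difference at -0.01, 0.00 and -0.01 for Krt14, 0.10 for Itga3 and -0.07 for Itga6. Leaving out 1 mouse gave these ranges where a direction turned. For HDM in CTL mice they were -0.08 to 0.18 (Itga3) and -0.04 to 0.15 (Krt5). For butyrate in lesional skin they were -0.30 to 0.00 (Krt14) and -0.32 to 0.01 (Itga3), and in baseline skin -0.25 to 0.04 (Itga3) and -0.15 to 0.03 (Itgb1). For HDM in butyrate-treated mice they were -0.65 to 0.63 (Krt15), -0.16 to 0.18 (Itga3), -0.03 to 0.29 (Itgb1), -0.14 to 0.86 (Itgb4) and -0.44 to 1.18 (Lamb3). For the difference they were -0.12 to 0.18 (Krt14), -0.22 to 0.11 (Itga3) and -0.07 to 0.80 (Itga6).

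Counts over all genes moved too. DESeq2 called 1093, 124, 58, 698 and 37 genes for HDM in CTL mice, butyrate in lesional skin, butyrate in baseline skin, HDM in butyrate-treated mice and the difference. limma-voom called 1 for butyrate in lesional skin, and library totals 83 for HDM in butyrate-treated mice. Fits of only the groups compared called 1918, 25 and 0 for HDM in CTL mice, butyrate in lesional skin and HDM in butyrate-treated mice. Leaving out 1 mouse gave 0 to 1936, 0 to 191, 0 to 3777, 0 to 2990 and 0 to 3275 in the 5 comparisons. For HDM in CTL mice these were 0 without either baseline CTL mouse and 16 and 23 without either lesional CTL mouse. With 2 mice per group, differences within the spread of a pair were not detectable.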
